A study of Mus musculus with 6 samples.

Results

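Chromatin accessibility was examined at 10 genes that encode surface receptors and adhesion proteins of muscle stem cells (MuSCs, also called satellite cells): Calcr, Cd34, Vcam1, Itga7, Itgb1, Cxcr4, Sdc3, Sdc4, Cdh15 and Met. The regions were the ATAC-seq peaks that carry the symbol of one of these genes in the deposited annotation, 36 in number, and 25 further peaks without a gene that lie inside the genes. Together they make 61 of the 75412 peaks of the series. Peaks inside these genes that the annotation gives to another gene, 6 in number, are left out. Met holds 16 of them, Itgb1 8, Cd34 7, Sdc3 6, Cdh15 5, Vcam1 3, and Calcr, Itga7, Cxcr4 and Sdc4 4 each.

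ATAC-seq measures open chromatin through the insertions of the Tn5 transposase. The 6 libraries, 3 of each genotype, came from MuSCs that were sorted and used without culture, from C57BL/6 mice. In Taf4a sKO animals a Pax7-driven CreERT, switched on by tamoxifen in mice aged 8 to 20 weeks, removes exons 11 and 12 of both floxed Taf4a alleles, so the deletion is limited to cells that express Pax7. Controls, labelled "Control" with titles reading WT, were littermates that also carried Taf4a fl/fl, either with or without the Pax7 Cre allele, so floxed alleles are common to both genotypes. Which of these control genotypes each library came from, and whether controls received tamoxifen, is not given in the sources used here. MuSCs were enriched by sorting against SCA1, CD45 and CD31 and for integrin α7, the product of Itga7, or by a Pax7 reporter, and which of these was used for the ATAC-seq libraries is not given either.

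Satellite cells lie between the myofibre and its basal lamina, and surface proteins hold them there and keep them quiescent. The calcitonin receptor (Calcr) binds collagen V in the niche and maintains quiescence, CXCR4 is the receptor of the chemokine CXCL12, and MET, the receptor of hepatocyte growth factor, acts in activation and migration. Integrin α7β1 (Itga7 and Itgb1) anchors the cells to laminin, M-cadherin (Cdh15) joins them to the myofibre, and VCAM1 is an immunoglobulin-type adhesion receptor. CD34 is a sialomucin of quiescent satellite cells, and syndecan-3 and syndecan-4 are heparan sulphate proteoglycans that serve as co-receptors. Antibodies to several of these proteins are used to isolate the cells.

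All values are the authors' read counts per peak, scaled for sequencing depth and rounded to whole numbers, and are called normalized reads below. Summed over all peaks they came to 37722015, 35226223 and 42803315 for control and 44311913, 41661725 and 41948821 for Taf4a sKO replicates. Each peak was tested with limma on log2(value + 1), and a peak is called higher or lower in Taf4a sKO MuSCs where the Benjamini-Hochberg adjusted p over all 75384 peaks with a mean above 10 was under 0.05. All 61 peaks passed this minimum. Over all peaks the median log2 change was 0.11 in the deposited values and between -0.04 and -0.01 under the other 3 scalings of the libraries that were tried (median-of-ratios, quantile and total signal in peaks), so a change of about 0.1 depends on the scaling. In bulk MuSCs, a site open in more cells and a site more open in each cell cannot be told apart.

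The targeted gene was examined to check the labels. The peak over exon 12 of Taf4, inside the floxed segment on chromosome 2, had 65, 78 and 137 normalized reads in control replicates against 44, 22 and 25 in those of the Taf4a sKO. All 3 Taf4a sKO values lay below all control values (limma log2 change -1.58, standard error 0.30, adjusted p = 3.4e-04). The peak at the Taf4 start site had 2305, 1998 and 2375 normalized reads in control and 2095, 2124 and 2104 in Taf4a sKO MuSCs, and was not called (adjusted p = 0.59). The other Taf4 peaks, named after their values were seen, lie outside exons 11 and 12 and were called as well. A peak in intron 7 (log2 change -0.83, adjusted p = 1.4e-04) and one in intron 14 (-0.49, adjusted p = 0.027) were lower, and one upstream of the start site was higher (0.55, adjusted p = 0.0030).

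Of the 61 peaks, 18 (29.5%) were higher and 9 (14.8%) were lower in Taf4a sKO MuSCs, and 34 were not called. Among all peaks tested, 28.0% were higher and 13.9% were lower, so the shares at these genes were close to those of the whole table. The split of 18 higher to 9 lower peaks became 17 to 19 with median-of-ratios scaling, 14 to 19 with quantile normalization and 15 to 19 with scaling to the total signal. The 19 lower peaks are 31.1% of the members, while the lower share of all peaks under these scalings was 22.5%, 25.1% and 25.8%, and the higher share was 25.3%, 24.8% and 23.4%. Under all 3 of these, 13 of the 18 higher and 9 of the 9 lower calls were kept, and 10 of the higher and 4 of the lower calls were also kept without each library in turn. A further 10 peaks that were not called in the deposited values, 2 of them promoter peaks, were lower under all 3 other scalings, and 0 were higher under all 3. These are 29.4% of the 34 uncalled members, beside 12.8% of all uncalled peaks. The 2 shares were not matched for signal, and the member peaks were stronger, with a median of 370 normalized reads against 196.8 for all peaks tested. The median log2 change was 0.14 over the 61 peaks. The values of the 2 genotypes did not overlap at 22 peaks that were higher (36.1%) and 10 that were lower (16.4%), against 50.3% of all peaks tested in either direction. By a fold threshold of the size that the study used, applied here to the log2 ratio of the group means (beyond 1, with no test) and not to the study's fitted contrast, 3 peaks were gained (4.92%), in Cdh15, Sdc3 and Itgb1, and 0 were lost, where 7.03% of all peaks were gained and 5.36% were lost. These shares of all peaks are those of the deposited values. With median-of-ratios, quantile and total scaling, 2, 3 and 2 member peaks were gained and 2, 1 and 2 were lost. Without control replicate 2, 2 were lost. Each of the 10 genes had at least 1 called peak, and in 6 of them (Cd34, Itga7, Itgb1, Cxcr4, Sdc3 and Met) peaks of the same gene were called in opposite directions. Among all 5966 genes with 3 to 16 peaks, not matched to the members on peak number within that range, 83.9% had a called peak and 20.8% had both directions. Peaks of a gene lie on the same DNA and in the same libraries and are no independent replicates.

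**Figure D1:**
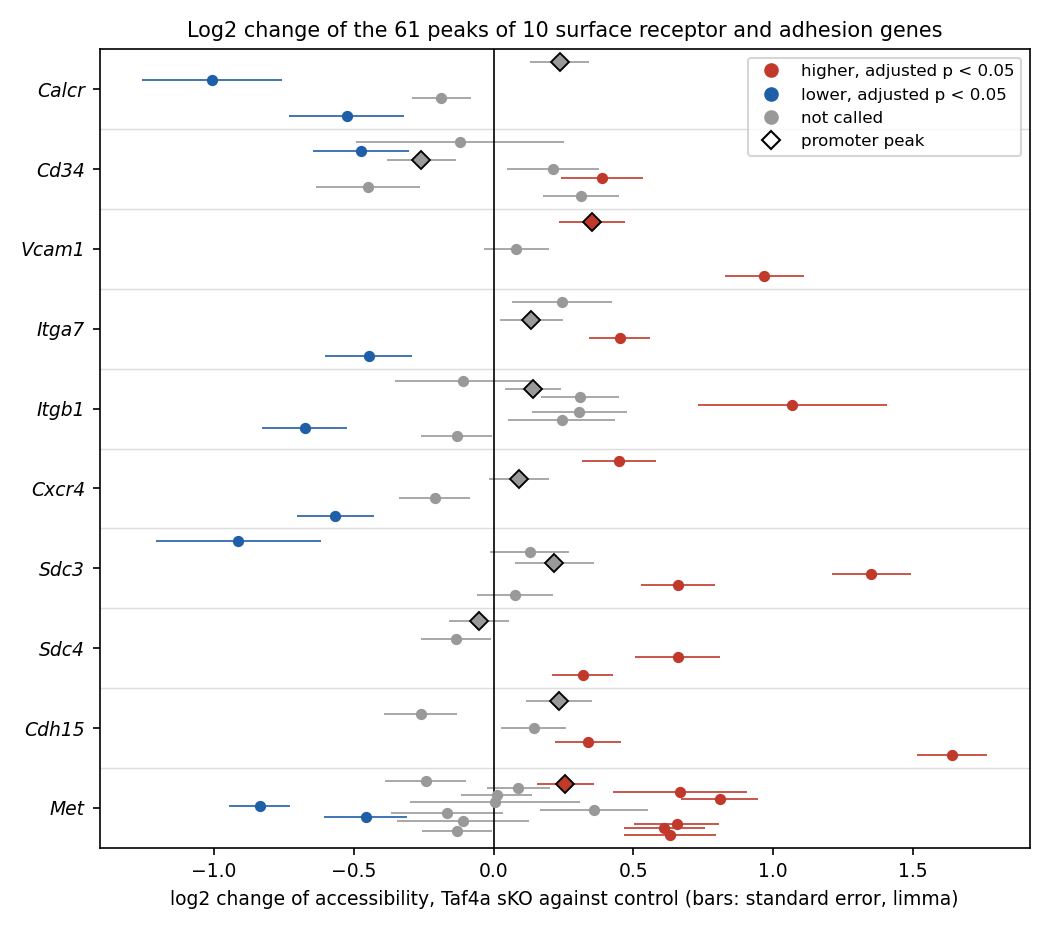
Log2 change of accessibility (x axis, Taf4a sKO against control, bars show the standard error from limma) of each of the 61 peaks, grouped by gene and ordered within a gene from upstream to downstream of the start site. Diamonds are promoter peaks, and red, blue and grey mark the 18 higher, 9 lower and 34 uncalled peaks. The 10 promoter peaks sit between -0.26 and 0.35, while called peaks lie on both sides of 0 in 6 of the 10 genes.

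Promoter peaks are those nearest the annotated start site, with a centre within 1000 bp of it. Of the 10 promoter peaks 2 were called, those of Vcam1 and Met, both higher, against 19.2% of 13773 promoter peaks of all genes. Of the 51 other peaks 25 were called, 16 higher and 9 lower, against 47.0% of all peaks away from promoters. The Vcam1 promoter peak, on chromosome 3 from 116128741 to 116129945 over exons 1 and 2, had 572, 534 and 540 normalized reads in control and 749, 697 and 658 in Taf4a sKO libraries (log2 change 0.35, standard error 0.12, adjusted p = 0.018, limma). It was no longer called after quantile normalization (0.13, adjusted p = 0.28) or after scaling to the total signal in peaks (0.20, adjusted p = 0.083), or without Taf4a sKO replicate 1 (adjusted p = 0.097) or 2 (adjusted p = 0.058). The Met promoter peak, on chromosome 6 from 17463268 to 17464538 over exon 1, had 2309, 2058 and 2482 normalized reads in control and 2788, 2720 and 2655 in Taf4a sKO libraries (log2 change 0.26, standard error 0.10, adjusted p = 0.044, limma). Leaving out any library other than control replicate 3 ended this call, with adjusted p from 0.0998 to 0.144. Taking the replicate number as a block in limma also ended it (adjusted p = 0.0635). All Taf4a sKO values lay above all control values at both promoters, but both changes were small.

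The other 8 promoter peaks were not called in the deposited values, but those of Cd34 and Sdc4 were lower under all 3 other scalings. The call of the Met promoter was kept under all 3. Which promoters were called thus depended on the scaling, and no promoter was called in opposite directions. With median-of-ratios, quantile and total scaling the log2 change of the Cd34 promoter was -0.37, -0.48 and -0.41 (adjusted p = 0.0028, 4.5e-04 and 0.0015, limma), and that of the Sdc4 promoter -0.17, -0.19 and -0.20 (adjusted p = 0.015, 0.0024 and 0.0024). The intervals that follow are those of the deposited values. The log2 change was 0.24 at Calcr (95% confidence interval 0.02 to 0.45), -0.26 at Cd34 (-0.51 to -0.01), 0.14 at Itga7 (-0.10 to 0.37), 0.14 at Itgb1 (-0.07 to 0.35) and 0.09 at Cxcr4 (-0.13 to 0.31). At the remaining promoters it was 0.22 for Sdc3 (-0.07 to 0.51), -0.05 for Sdc4 (-0.28 to 0.17) and 0.23 for Cdh15 (-0.01 to 0.48). These intervals come from limma and are not adjusted for the number of peaks. The promoters of Calcr and Cdh15 had every Taf4a sKO value above every control value, and that of Cd34 had 670, 646 and 787 in control against 593, 623 and 539 in Taf4a sKO libraries, with every Taf4a sKO value lower.

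**Figure D2:**
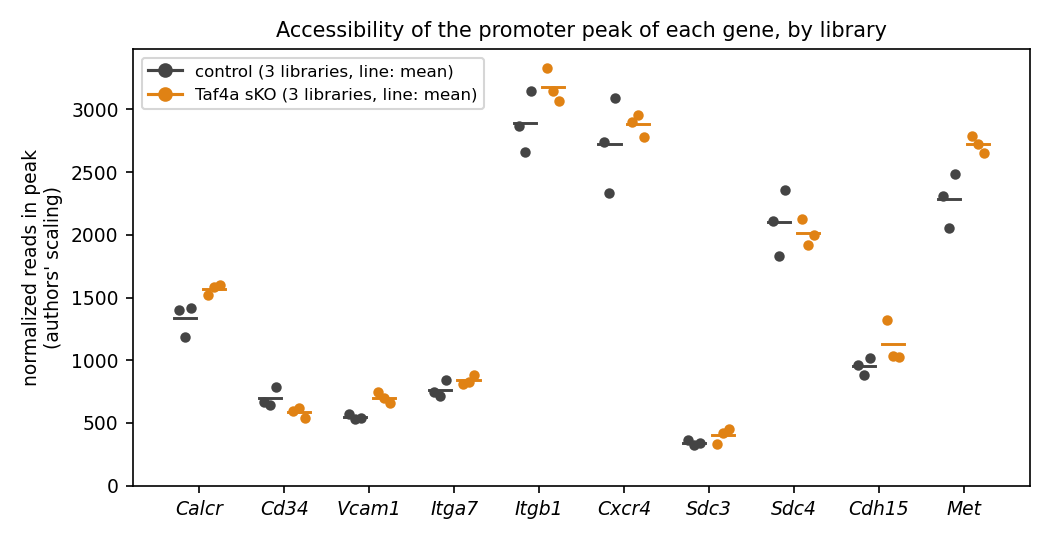
Normalized reads (y axis, linear, from 0) in the promoter peak of each gene, with a point for each library and a line for the mean of 3. The Vcam1 and Met promoters, the called pair, show a complete separation of genotypes, as do the uncalled promoters of Calcr, Cd34 and Cdh15. At the other 5 the genotypes overlap. Separation in either direction was found at 50.3% of all peaks tested, so it does not set these promoters apart.

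Per kb of peak, a measure that depends on the called width, the promoter of Cdh15 had the highest signal in control MuSCs, with 2132 ± 150 normalized reads per kb (SD, n = 3). It was followed by Itgb1 with 1954 ± 165, Sdc4 with 1915 ± 241, Met with 1796 ± 168 and Cxcr4 with 1449 ± 201, and in this order from Cdh15 to Cxcr4 each overlapped the next. Itga7 came next with 998 ± 83.7, below every Cxcr4 library and above every library of Calcr, which had 859 ± 85.1 and overlapped Cd34 with 797 ± 85.7. Vcam1 with 455 ± 17.0 and Sdc3 with 306 ± 18.4 normalized reads per kb were the least accessible, each apart from its neighbours. The order was the same in Taf4a sKO MuSCs except that Met stood before Sdc4. The Cdh15 promoter peak was the narrowest, with 448 bp. By normalized reads in the whole peak Itgb1 led in control MuSCs, with a mean of 2890 against 955 for Cdh15.

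Among the receptors, Calcr carried its changes inside the gene body. The gene lies on the minus strand of chromosome 6, and its promoter peak, from 3763260 to 3764813, had 1403, 1183 and 1420 normalized reads in control and 1524, 1583 and 1597 in Taf4a sKO libraries. RefSeq places 2 promoters of Calcr under this peak or at its edge (GRCm38.p6, windows of 250 bases before to 50 after each start). The inner window, on chromosome 6 from 3763574 to 3763873, holds 29 CG pairs with a GC content of 70.0%, and the outer window, from 3764664 to 3764963, holds 4 with 47.3%. The inner window is shown because the accessible peak covers it in full. It is given 5′ to 3′ on the minus strand, and the capitals mark the letters GGGCGG, the core recognised by SP1.
Calcr promoter: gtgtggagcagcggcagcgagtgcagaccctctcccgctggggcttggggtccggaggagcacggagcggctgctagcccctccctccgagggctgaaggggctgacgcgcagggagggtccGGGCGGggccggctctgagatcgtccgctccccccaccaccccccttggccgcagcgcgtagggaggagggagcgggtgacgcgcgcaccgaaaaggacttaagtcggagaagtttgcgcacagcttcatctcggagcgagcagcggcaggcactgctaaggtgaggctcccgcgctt

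The Calcr peak with the smallest p was in intron 2, 6.53 kb downstream of the start site, in a peak of 200 bp from 3758086 to 3758285. Control libraries had 68, 59 and 68 normalized reads there and Taf4a sKO libraries 40, 32 and 25, so the genotypes did not overlap. The mean fell from 65.0 ± 5.20 to 32.3 ± 7.51 normalized reads (SD, n = 3), a fold of 0.498 on the log2(value + 1) scale (standard error of the log2 change 0.25, adjusted p = 0.0024, limma). A peak 57.5 kb downstream in intron 10 had 128, 114 and 83 in control against 86, 63 and 74 in Taf4a sKO libraries, with overlapping genotypes (log2 change -0.53, standard error 0.21, adjusted p = 0.043). It was not called without control replicate 1 or 2 or Taf4a sKO replicate 2 or 3 (log2 change from -0.40 to -0.53, adjusted p from 0.079 to 0.19). The strongest Calcr peak, a peak in intron 3 that held 58.5% of the gene's control signal, had 2102, 1920 and 2359 normalized reads in control and 1980, 1899 and 1719 in Taf4a sKO libraries and was not called (adjusted p = 0.17), but it was lower under all 3 other scalings, with log2 changes from -0.30 to -0.33.

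The sequence of the intron 2 peak of Calcr is shown whole, on the plus strand, beside the later windows of other genes. Capitals in these windows mark CAGCTG, an E-box of the kind bound by MYOD, TGANTCA, the AP-1 site, CATTCC, the core bound by TEAD factors, and CCAAT, the box bound by NF-Y, each read on both strands. The peak holds 1 CAGCTG.
Calcr intron 2 chr6:3758086-3758285: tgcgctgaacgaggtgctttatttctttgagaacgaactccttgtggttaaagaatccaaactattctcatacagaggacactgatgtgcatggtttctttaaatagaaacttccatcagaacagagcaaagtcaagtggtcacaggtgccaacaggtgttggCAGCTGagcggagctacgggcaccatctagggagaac

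Cxcr4, a compact gene on the minus strand of chromosome 1, had 4 peaks, 1 of them higher and 1 lower. Its promoter peak, from 128591855 to 128593732, held 66.1% of the signal and had 2740, 2335 and 3091 normalized reads in control and 2903, 2957 and 2782 in Taf4a sKO libraries (adjusted p = 0.53, limma). Upstream of it, a peak 2.45 kb before the start site had 422, 484 and 610 in control and 691, 682 and 674 in Taf4a sKO libraries, and rose with a log2 change of 0.45 (standard error 0.13, adjusted p = 0.0085). Downstream, the peak over exon 2, from 128589517 to 128589763, had 347, 355 and 403 in control and 248, 252 and 244 in Taf4a sKO libraries, and fell by 0.57 on the log2 scale (standard error 0.14, adjusted p = 0.0018). In both peaks the genotypes did not overlap. The rise upstream was not called after quantile normalization (0.22, adjusted p = 0.065) or without control replicate 1 (0.33, adjusted p = 0.0785), whereas the fall over exon 2 was called under all 3 other scalings and without each library in turn.

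Met, on the plus strand of chromosome 6, had the most peaks. Of its 16 peaks 6 were higher and 2 were lower, and the 8 uncalled ones had log2 changes from -0.24 to 0.36. The strongest change was a loss of signal in intron 4, 52.5 kb downstream of the start site, in a peak from 17515728 to 17516819. It had 1171, 1076 and 1157 normalized reads in control and 655, 618 and 631 in Taf4a sKO libraries, far apart compared with the spread in either genotype. The fall was 0.84 on the log2 scale (standard error 0.11, adjusted p = 2.1e-06, limma). Another peak, in intron 6 at 66.2 kb, had 379, 367 and 384 in control and 301, 219 and 312 in Taf4a sKO libraries (log2 change -0.46, standard error 0.15, adjusted p = 0.016), and was not called without control replicate 2 (-0.48, adjusted p = 0.051) or Taf4a sKO replicate 2 (-0.30, adjusted p = 0.16).

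Signal rose at other sites of the same gene. In intron 3, 37.9 kb from the start site, a peak from 17501457 to 17502036 had 424, 456 and 633 normalized reads in control and 809, 891 and 917 in Taf4a sKO libraries (log2 change 0.81, standard error 0.14, adjusted p = 7.1e-05, limma). Toward the 3′ end, the peaks in introns 12, 16 and 20, at 83.1, 91.0 and 100.6 kb, rose by log2 changes of 0.66, 0.61 and 0.63 (adjusted p = 0.0013, 0.0016 and 0.0036). The peak at 83.1 kb had 174, 165 and 209 in control and 289, 315 and 259 in Taf4a sKO libraries. The one at 91.0 kb had 306, 266 and 345 against 432, 556 and 418, and the one at 100.6 kb 139, 119 and 143 against 211, 174 and 241. Each of these 4 peaks had every Taf4a sKO value above every control value and kept its call under all 3 other scalings and without each library. A weaker peak at 21.7 kb in intron 1 had 42, 35 and 60 in control and 75, 78 and 62 in Taf4a sKO libraries (log2 change 0.67, standard error 0.24, adjusted p = 0.028) and lost its call with scaling to the total signal (0.52, adjusted p = 0.055) and without control replicate 1 or 2 or Taf4a sKO replicate 1 or 2 (adjusted p from 0.050 to 0.15).

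**Figure D3:**
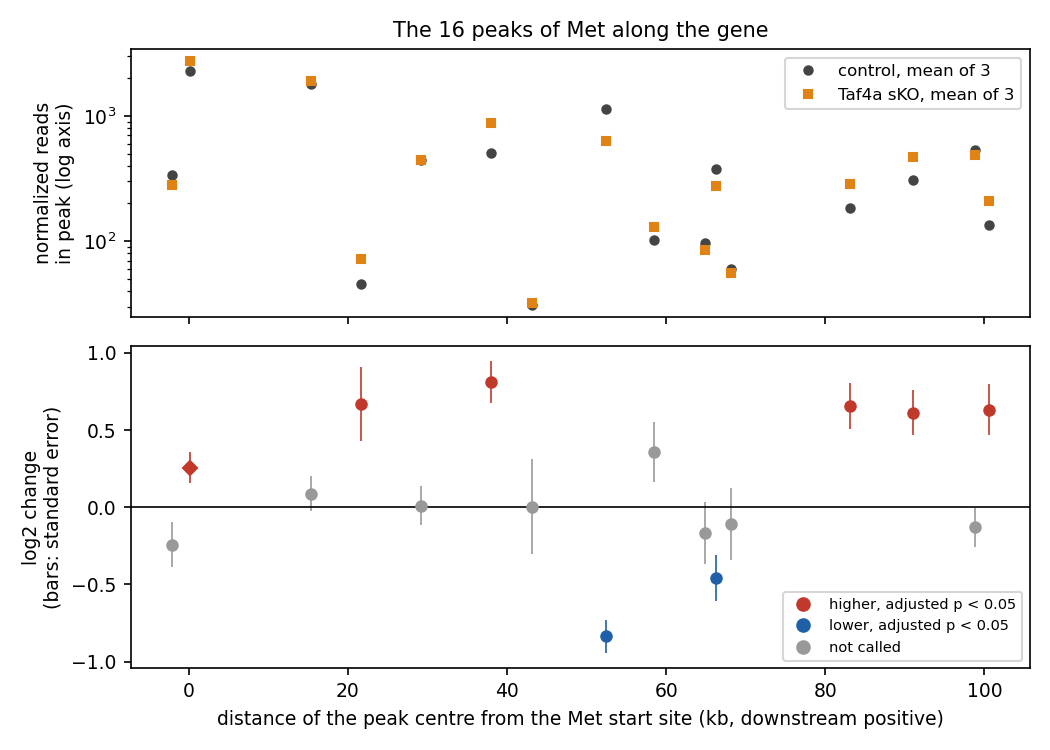
The 16 peaks of Met by distance of the peak centre from the start site (x axis, kb, downstream positive). The upper panel shows the mean normalized reads of 3 control (circles) and 3 Taf4a sKO libraries (squares) on a log axis, and the lower panel the log2 change with its standard error, with the promoter peak as a diamond. The 2 lower peaks at 52.5 and 66.2 kb lie between higher peaks at 37.9 kb and at 83.1 to 100.6 kb.

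The Met promoter and the windows of 200 bases at the centre of its most changed higher and lower peaks are shown so that the called sites can be read. The promoter (RefSeq, GRCm38.p6, chromosome 6 from 17463707 to 17464006, plus strand) is CG-rich, with a GC content of 75.7%, and capitals mark 3 matches to GGGCGG. It has no CCAAT on either strand, and it holds 1 TGANTCA, left in lower case here. The higher window in intron 3 has none of the 4 sequences searched in peaks, and the lower window in intron 4 has 2 CAGCTG and 1 TGANTCA, marked in capitals.
Met promoter chr6:17463707-17464006: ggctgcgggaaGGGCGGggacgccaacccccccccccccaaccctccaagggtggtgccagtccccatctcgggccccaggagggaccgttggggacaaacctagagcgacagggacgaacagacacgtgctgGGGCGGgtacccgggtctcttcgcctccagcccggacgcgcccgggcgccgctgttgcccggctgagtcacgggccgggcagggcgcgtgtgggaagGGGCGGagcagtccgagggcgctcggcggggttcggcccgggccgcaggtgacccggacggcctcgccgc
Met intron 3 higher chr6:17501647-17501846: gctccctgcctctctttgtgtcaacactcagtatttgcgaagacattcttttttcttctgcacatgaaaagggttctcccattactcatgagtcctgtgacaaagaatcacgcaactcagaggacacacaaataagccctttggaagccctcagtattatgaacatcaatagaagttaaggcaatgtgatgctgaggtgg
Met intron 4 lower chr6:17516174-17516373: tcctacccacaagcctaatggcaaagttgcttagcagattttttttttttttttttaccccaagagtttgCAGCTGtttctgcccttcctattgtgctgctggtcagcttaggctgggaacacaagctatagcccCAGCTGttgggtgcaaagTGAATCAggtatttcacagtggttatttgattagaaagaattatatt

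Among the adhesion genes, Cdh15 held the largest change of all 61 peaks. The gene lies on the plus strand of chromosome 8, and the peak is in intron 1, 5.55 kb downstream of the start site, from 122853356 to 122853672. Control libraries had 253, 226 and 244 normalized reads and Taf4a sKO libraries 776, 745 and 737, a gain of 3.12-fold on the log2(value + 1) scale with little spread in either genotype (log2 change 1.64, standard error 0.13, adjusted p = 2.5e-09, limma). The change ranged from 1.59 to 1.68 when each library was left out. The neighbouring peak, 3.93 kb downstream, had 1159, 910 and 1213 in control and 1520, 1263 and 1346 in Taf4a sKO libraries (log2 change 0.34, standard error 0.12, adjusted p = 0.025) and was not called after quantile normalization (0.17, adjusted p = 0.067) or without control replicate 2 or Taf4a sKO replicate 1 or 3 (adjusted p from 0.053 to 0.14). The promoter peak had 959, 886 and 1020 in control and 1324, 1037 and 1028 in Taf4a sKO libraries (adjusted p = 0.11), and the strongest Cdh15 peak, with 41.5% of the control signal in intron 1, was not called (log2 change 0.14, adjusted p = 0.34). The gained peak held 4.23% of the control signal of the gene, the smallest share among the 5 peaks. Its central 200 bases contain none of the 4 sequences searched.
Cdh15 intron 1 chr8:122853415-122853614: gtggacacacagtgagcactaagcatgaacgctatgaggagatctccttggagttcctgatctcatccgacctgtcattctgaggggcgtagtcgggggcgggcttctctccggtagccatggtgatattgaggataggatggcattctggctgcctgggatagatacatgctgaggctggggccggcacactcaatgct

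Sdc3, the gene of syndecan-3 on the plus strand of chromosome 4, had the second gained peak. In intron 1, 5.01 kb downstream of the start site, the peak from 130797223 to 130797866 had 192, 164 and 187 normalized reads in control and 466, 418 and 507 in Taf4a sKO libraries (log2 change 1.35, standard error 0.14, adjusted p = 1.4e-07, limma). A neighbour 6.41 kb downstream had 272, 274 and 315 in control and 440, 470 and 449 in Taf4a sKO libraries and also rose (log2 change 0.66, standard error 0.13, adjusted p = 3.4e-04). In both peaks every Taf4a sKO value exceeded every control value. A weak peak 7.56 kb upstream had 47, 32 and 49 in control and 21, 19 and 26 in Taf4a sKO libraries, and fell by 0.91 on the log2 scale (standard error 0.30, adjusted p = 0.016). It was not called without control replicate 1 (-0.83, adjusted p = 0.062) or without Taf4a sKO replicate 2 (-0.82, adjusted p = 0.051). The promoter peak had 364, 323 and 341 in control and 333, 417 and 454 in Taf4a sKO libraries, with overlapping genotypes. The centre of the gained peak holds 1 CCAAT, read on the minus strand and marked in capitals.
Sdc3 intron 1 chr4:130797445-130797644: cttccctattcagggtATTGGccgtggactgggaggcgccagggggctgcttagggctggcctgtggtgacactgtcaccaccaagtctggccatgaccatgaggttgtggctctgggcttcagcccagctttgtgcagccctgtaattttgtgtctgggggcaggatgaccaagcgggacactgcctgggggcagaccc

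Sdc4, the gene of syndecan-4 on the minus strand of chromosome 2, had its strongest peak inside intron 1, 11.3 kb from the start site, with 60.1% of the gene's control signal. This peak, from 164431715 to 164433517, had 4668, 4137 and 5567 normalized reads in control and 6526, 5674 and 5642 in Taf4a sKO libraries, and the highest control value was close to the lowest Taf4a sKO value (log2 change 0.32, standard error 0.11, adjusted p = 0.022, limma). It was not called without control replicate 1 or 2 or Taf4a sKO replicate 1 (log2 change from 0.22 to 0.31, adjusted p from 0.073 to 0.13). A smaller peak 4.82 kb from the start site had 467, 418 and 696 in control and 795, 848 and 795 in Taf4a sKO libraries and rose more clearly (log2 change 0.66, standard error 0.15, adjusted p = 0.0020). The Sdc4 promoter peak had 2110, 1829 and 2356 in control and 2122, 1917 and 2002 in Taf4a sKO libraries, with the genotypes mixed (adjusted p = 0.73), although it was lower under the 3 other scalings.

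**Figure D4:**
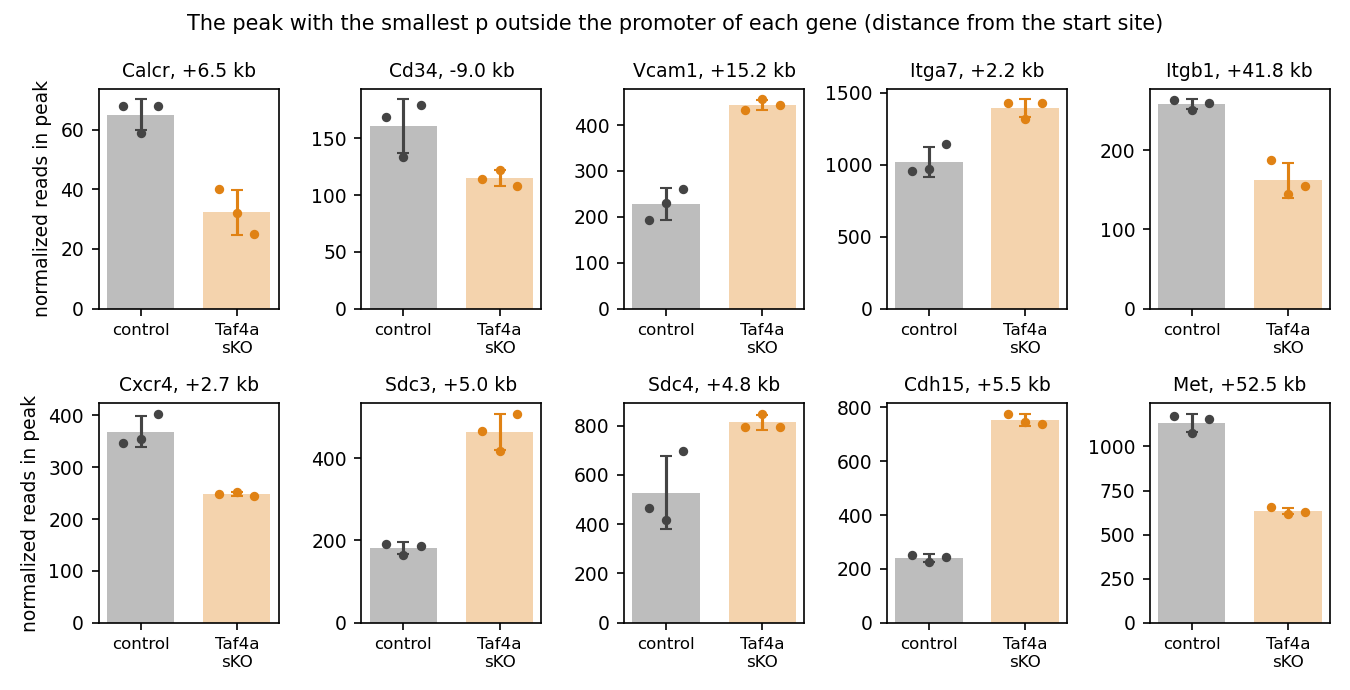
Normalized reads (y axis, linear, from 0) in the peak with the smallest p outside the promoter of each gene, with its distance from the start site in kb above each panel. Points are libraries, bars the mean of 3 and error bars the SD. In all 10 panels the genotypes do not overlap, with higher values in Taf4a sKO MuSCs for Vcam1, Itga7, Sdc3, Sdc4 and Cdh15 and lower values for Calcr, Cd34, Itgb1, Cxcr4 and Met. These peaks were picked by p, and 50.3% of all peaks tested did not overlap either.

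The integrin genes showed called peaks in both directions with small changes at the promoters. Itga7, on the plus strand of chromosome 10, encodes the protein used for sorting. Its promoter peak had 743, 717 and 839 normalized reads in control and 809, 826 and 886 in Taf4a sKO libraries (adjusted p = 0.36, limma). In intron 1, the peak 2.19 kb downstream of the start site had 953, 968 and 1141 in control and 1429, 1320 and 1426 in Taf4a sKO libraries (log2 change 0.45, standard error 0.11, adjusted p = 0.0017), and the peak 4.80 kb downstream in the same intron had 499, 499 and 467 in control and 457, 275 and 365 in Taf4a sKO libraries (log2 change -0.45, standard error 0.15, adjusted p = 0.025). The genotypes did not overlap at either, but the lower peak was not called without Taf4a sKO replicate 2 (-0.26, adjusted p = 0.22) or control replicate 2 (-0.43, adjusted p = 0.10).

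Itgb1, on the plus strand of chromosome 8, had 8 peaks, of which 1 rose and 1 fell. The promoter peak, with 65.4% of the control signal, had 2868, 2658 and 3145 normalized reads in control and 3329, 3143 and 3068 in Taf4a sKO libraries (adjusted p = 0.28, limma). In intron 15, 41.8 kb downstream, the peak from 128727334 to 128727650 had 263, 251 and 259 in control and 187, 145 and 154 in Taf4a sKO libraries and fell by 0.67 on the log2 scale (standard error 0.15, adjusted p = 0.0010). In intron 1, 18.1 kb downstream, the third gained peak had 11, 21 and 17 in control and 28, 41 and 35 in Taf4a sKO libraries (log2 change 1.07, standard error 0.34, adjusted p = 0.014). This is the weakest of the 61 peaks in control MuSCs, and it was not called without control replicate 1 (0.83, adjusted p = 0.068) or without Taf4a sKO replicate 2 (0.94, adjusted p = 0.067). It no longer met the gained threshold with median-of-ratios or total scaling, a pseudocount of 5, or without either of these libraries, where only the Cdh15 and Sdc3 peaks were gained.

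Vcam1, on the minus strand of chromosome 3, had 3 peaks and no lower one. Over exon 8, 15.2 kb downstream of the start site, the peak from 116113947 to 116115004 had 193, 230 and 261 normalized reads in control and 433, 456 and 443 in Taf4a sKO libraries. The values of the genotypes lay far apart (log2 change 0.97, standard error 0.14, adjusted p = 1.0e-05, limma). The strongest Vcam1 peak, in intron 2 with 59.7% of the control signal, had 1082, 1006 and 1359 in control and 1181, 1206 and 1231 in Taf4a sKO libraries and was not called (adjusted p = 0.61).

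Cd34, on the plus strand of chromosome 1, had 7 peaks, of which 1 rose and 1 fell. A peak 8.96 kb upstream of the start site had 169, 134 and 179 normalized reads in control and 114, 122 and 108 in Taf4a sKO libraries (log2 change -0.47, standard error 0.17, adjusted p = 0.028, limma), and a peak in intron 1, 6.70 kb downstream, had 235, 223 and 237 in control and 343, 314 and 259 in Taf4a sKO libraries (log2 change 0.39, standard error 0.15, adjusted p = 0.036). The genotypes did not overlap at either peak. Neither call held throughout. The lower peak was not called without control replicate 1 or 3 or Taf4a sKO replicate 1 or 3 (adjusted p from 0.057 to 0.10), and the higher one was not called under any of the 3 other scalings (0.20 to 0.28) or without control replicate 1 or 2 or Taf4a sKO replicate 1 or 2 (adjusted p from 0.061 to 0.18). The 5 other Cd34 peaks had log2 changes from -0.45 to 0.31.

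Changes within a gene were also measured relative to its promoter peak in the same library, a quantity that dividing a library by 1 factor cannot move. Of the 51 peaks outside promoters, 15 rose and 14 fell relative to the promoter of their gene, against 27.5% higher and 20.2% lower among 28632 such peaks of all genes. Quantile normalization, which uses no single factor, gave 13 and 16. The Cdh15 peak at 5.55 kb rose by a log2 difference of 1.41 relative to its promoter, the Sdc3 peak at 5.01 kb by 1.13 and the Vcam1 peak over exon 8 by 0.62 (adjusted p = 0.0019, limma). The Met peak at 52.5 kb fell by 1.09 and the Calcr peak at 6.53 kb by 1.24 (adjusted p = 5.9e-04). All 3 Calcr peaks outside the promoter were lower relative to it, and 3 Cd34 peaks were higher relative to a promoter whose own signal had a negative change.

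Summed over the peaks counted for a gene, accessibility was called higher for Sdc3 and Vcam1 and lower for no member in the deposited values, where 22.2% of 21396 genes were higher and 10.7% were lower. The sums leave out 6 peaks inside Vcam1, Itga7, Sdc3 and Cdh15 that are annotated to antisense or small RNA genes. Of these, a peak inside Sdc3 (log2 change 0.87, adjusted p = 6.4e-05, limma) and one inside Itga7 (0.75, adjusted p = 0.040) were higher, and the others were not called. The Sdc3 sum was 1541, 1377 and 1600 normalized reads in control and 1957, 1987 and 2173 in Taf4a sKO libraries (log2 change 0.44, standard error 0.10, adjusted p = 4.8e-05, limma), and the Vcam1 sum was 1847, 1770 and 2160 against 2363, 2359 and 2332 (log2 change 0.29, standard error 0.10, adjusted p = 0.012). The Vcam1 sum was not called without control replicate 1 or without any one of the Taf4a sKO replicates (adjusted p from 0.064 to 0.12). In each of those fits 1 gene was higher by sum. Without control replicate 3 there were 5, among them Itga7 (0.26, adjusted p = 0.0029) and Sdc4 (0.33, adjusted p = 2.7e-04). The sum of Cdh15 changed by 0.24 (adjusted p = 0.085) although one of its 5 peaks was gained, and that of Met by 0.10 (adjusted p = 0.55), where 6 higher and 2 lower peaks were added up. Under the other scalings the Calcr sum was lower in all 3 (-0.15, -0.17 and -0.18, adjusted p = 0.012, 0.0014 and 0.0018), the Cd34 sum with quantile (-0.21, adjusted p = 0.017) and total scaling (-0.17, adjusted p = 0.036), and the Cxcr4 sum with quantile normalization (-0.09, adjusted p = 0.046). The Sdc4 sum was called higher with quantile normalization (0.11, adjusted p = 0.014).

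Position and base composition were compared by call. Outside promoters, the median distance from the start site was 8988 bp for the 16 higher, 8955 bp for the 9 lower and 10429 bp for the 26 uncalled peaks. Of these, 14 of the higher, 6 of the lower and 21 of the uncalled peaks were centred in introns. The central 200 bases had a median GC content of 46.5% in the higher, 47.0% in the lower and 46.25% in the uncalled peaks outside promoters, and 67.75% in the 10 promoter peaks. CAGCTG was present in 17 of the 61 windows (27.9%) and in 21.6% of the windows of all peaks, TGANTCA in 8 (13.1% against 17.3%), CATTCC in 7 (11.5% against 13.3%) and CCAAT in 15 (24.6% against 23.0%). Among peaks outside promoters, CAGCTG was in 4 of 9 lower, 4 of 16 higher and 9 of 26 uncalled peaks. RefSeq promoters were matched for 8 of the 10 genes, 9 windows in all, with Vcam1 and Itga7 missing. GGGCGG was in 7 of these 9 windows, against 35.7% of 32851 promoters, and CCAAT in 1, that of Cdh15, against 37.4%. The low count of CCAAT depends on the window. At the centres of the 10 promoter peaks CCAAT was in 4 (40%), those of Calcr, Cd34, Itga7 and Cdh15, against 23.0% of all peaks. A match of letters is a description of the sequence and does not show a bound factor.

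Genes that work with these receptors were counted from 9 lists. Of 375 peaks at 64 of the 67 listed genes, 114 (30.4%) were higher and 58 (15.5%) were lower in Taf4a sKO MuSCs, near the 28.0% and 13.9% of all peaks, with a median log2 change of 0.11, beside 0.11 over all peaks. Other integrin subunits had 36 higher (42.4%) and 4 lower (4.71%) of 85 peaks, against 28.0% and 13.9% of all peaks, with a median log2 change of 0.36. Of these peaks 12 were gained (14.1%, against 7.03% of all peaks). A peak at Itgb6 rose from 433 ± 45.3 to 898 ± 109 normalized reads (SD, n = 3, adjusted p = 8.5e-07, limma) and a peak at Itgb5 from 1422 ± 175 to 2605 ± 152 (adjusted p = 9.5e-07). Integrin adaptors, which link integrins to actin, had 15 higher (22.1%) and 10 lower (14.7%) of 68 peaks, with 5 peaks of Parva among the higher and a Fermt2 peak, from 75.0 ± 6.56 to 25.3 ± 5.86 (adjusted p = 3.7e-05), among the lower.

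In the list of calcitonin receptor partners and collagen V, the ligand of CALCR, 17 of 47 peaks (36.2%) were higher and 8 (17.0%) were lower, beside 28.0% and 13.9% of all peaks. A Col5a1 intron peak fell from 439 ± 56.5 to 48.3 ± 8.14 normalized reads (SD, n = 3, log2 change -3.16, adjusted p = 1.6e-11, limma), and 5 of the 6 Col5a3 peaks rose. For CXCR4, 1 of 7 peaks of the ligand Cxcl12 and the scavenger receptor Ackr3 was higher and none was lower. MET partners had 11 higher (26.8%) and 3 lower (7.32%) of 41 peaks, led by an intron peak of the adaptor Grb2 that rose from 130 ± 24.6 to 416 ± 44.1 (adjusted p = 3.4e-08), and 8 of the 21 peaks of the docking protein gene Gab1 rose and 1 fell.

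Relatives of the adhesion genes are read against the same shares of all peaks, 28.0% higher and 13.9% lower. The CD34 relatives Podxl and Podxl2 had 5 higher and 2 lower of 10 peaks. All 5 higher peaks belong to Podxl, and the 3 gained peaks included a Podxl intron peak that rose from 25.7 ± 2.08 to 100.7 ± 25.0 normalized reads (SD, n = 3, adjusted p = 2.0e-06, limma). Immunoglobulin adhesion genes, with the VCAM1 receptor subunit Itga4, had 15 higher (28.8%) and 14 lower (26.9%) of 52 peaks. The promoter peak of Itga4 rose from 139 ± 22.8 to 351 ± 15.8 (adjusted p = 4.7e-07), while 11 of the 14 lower peaks belong to Cadm1 and 3 to Ncam1. A Cadm1 peak fell from 190 ± 26.1 to 58.0 ± 8.19 (adjusted p = 2.4e-07). Syndecans and glypicans had 5 higher (20.8%) and 6 lower (25.0%) of 24 peaks, and cadherins and catenins 9 higher (22.0%) and 11 lower (26.8%) of 41, with median log2 changes of -0.03 and -0.12.

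Markers of the sorted cells and of other cell types were read in the same way, because Cd34 and Vcam1 are also expressed by endothelial cells and other cells of muscle. Their counts stand beside 28.0% higher and 13.9% lower among all peaks. Muscle stem cell markers had 24 higher (40.7%) and 5 lower (8.47%) of 59 peaks, all 8 genes had peaks, and their promoter peaks summed to 16270, 14175 and 16612 normalized reads in control and 16184, 15098 and 15193 in Taf4a sKO libraries, with Pax7 the most accessible. Haematopoietic markers had 1 higher of 4 peaks, and Ptprc, Laptm5, Tyrobp, Cd48 and Cd53 had no peak at all. Endothelial markers had 16 higher (45.7%) and 3 lower (8.57%) of 35 peaks, their promoter peaks summed to 1580, 1434 and 1970 in control and 2118, 2116 and 2016 in Taf4a sKO libraries, led by Tek, and Emcn and Tie1 had no peak. Fibro-adipogenic and fibroblast markers had 13 higher (50.0%) and 4 lower (15.4%) of 26 peaks, with promoter sums of 2615, 2337 and 2961 against 3421, 3221 and 3197, led by Col1a1, and Ly6a had no peak. Myofibre markers had 3 lower (23.1%) and no higher of 13 peaks, with promoter sums of 5798, 5084 and 6566 against 6854, 6110 and 6011, led by Mylpf. The endothelial and fibroblast sums were higher in every Taf4a sKO library than in every control library, as were the promoters of Vcam1, Calcr, Cdh15 and Met. The Cd34 promoter was lower in every Taf4a sKO library. These sums weigh strong promoters most and do not describe every marker of a list. The Col1a1 promoter alone rose from 1201 ± 163 to 1851 ± 77.7 normalized reads (SD, n = 3, adjusted p = 8.0e-05, limma). Of the 5 fibroblast promoter peaks 3 were called higher and 1 lower, and of the 3 endothelial ones 1 was called higher and 0 lower. Pdgfra had 0 higher and 1 lower of 5 peaks. The described isolation includes a sort against SCA1, CD45 and CD31, but the study reports that the sorted cells, when reanalysed, were only partly pure. The part of endothelial and fibroblast cells in the Vcam1 and Cd34 results was not tested.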

How the data were processed

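ATAC-seq libraries of sorted MuSCs, 3 control and 3 Taf4a sKO, were sequenced. Per the labels and the study's methods, the authors trimmed reads (Trimmomatic 0.39), aligned them to mm10 (STAR 2.7.11b), removed duplicates (Picard 3.1.1), called peaks per sample with MACS, unified them, counted reads (featureCounts) and scaled the counts for sequencing depth; DESeq2 served for their contrasts, and a shift for Tn5 is not described. The deposited values, a score in whole numbers, are these scaled counts after rounding, so limma 3.58.1 (R 4.3.3, trend and robust) was applied to log2(value + 1) for peaks with a mean above 10, and a count model was not the main test. The authors' own contrast columns, with fold changes, were not used. All 6 columns of library values were used.

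Recovered reads in peaks ranged from 27151599 to 35226223 per library. Replicates were separate biological samples. Gene features came from GENCODE vM21 and promoter sequences from RefSeq. For each gene the promoter peak, the peak with the smallest p and every called peak are given with the value of each library; from each list, at most 4 peaks with the smallest adjusted p are named. The members and lists were chosen with earlier results of these data known. Alternatives were 3 other scalings, a pseudocount of 5, other minimum means, a replicate block, voom on recovered reads, a ratio of 1.5, a promoter limit of 3000 bp and leaving out each library.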

Additional observations from a re-analysis of the deposited data

How the results depend on the processing

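The 9 lower peaks became 19 under each of median-of-ratios scaling, quantile normalization and scaling to the total signal in peaks. In that order, the 0 lost peaks became 2, 1 and 2, and the 0 genes lower by sum became 1, 3 and 2. A 1.5-fold ratio gave 11 gained and 4 lost peaks, against 3 and 0. Leaving out each library gave 12 to 26 higher peaks, 5 to 10 lower (5 without Taf4a sKO replicate 2), 2 to 4 gained, 0 to 2 lost and 1 to 5 genes higher by sum (5 without control replicate 3). Relative to the promoter peak it gave 10 to 15 higher and 11 to 16 lower peaks. The counts computed under a pseudocount of 5 (all), minimum means of none or 50 (all but gene sums), voom on recovered reads (higher and lower peaks) and the promoter limit of 3000 bp (relative to the promoter) stayed within 1.5 times, and the mean above 50 leaves out weak peaks by construction.

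Values that changed sign were not called in the main result. Under median-of-ratios, quantile and total scaling the Cxcr4 promoter changed to -0.0223, -0.0267 and -0.0577, and the summed values of Itgb1 to -0.0236, -0.0434 and -0.0590, of Cxcr4 to -0.0565, -0.0946 (adjusted p = 0.0457, limma) and -0.0919, and of Met to -0.0100, -0.0581 and -0.0454. The Itga7 promoter changed to -0.0796 with quantile and -0.0132 with total scaling, and the Itgb1 promoter to -0.0081 with total scaling. When each library was left out, the Cxcr4 promoter ranged from -0.0152 (without control replicate 2) to 0.1871, the Cxcr4 sum from -0.0218 (without control replicate 2) to 0.1521, the Sdc4 promoter from -0.1481 to 0.0344 (without control replicate 3), the Calcr sum from -0.1077 to 0.0236 (without control replicate 3), and the Cd34 sum from -0.0723 to 0.0531 (without Taf4a sKO replicate 3, and 0.0432 without control replicate 3). Apart from the scaling itself and the smaller number of samples, the cause was not tested.

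Libraries with the same number did not deviate together (correlations of 0.110, -0.118 and -0.029 for numbers 1, 2 and 3), and not every library correlated best with its own number. So few libraries cannot exclude a pairing, for example by litter, since the controls were littermates. A replicate block gave 17 higher and 10 lower peaks, 15 and 15 relative to the promoter, and 2 and 0 genes by sum, and with it the Met promoter, 1 of the 2 called promoters, was no longer called (log2 change 0.26, adjusted p = 0.0635, limma). With 3 libraries per genotype, calls of weak and of strong peaks were lost when a library was left out. Of the 6 fits without 1 library, the weak gained Itgb1 peak kept its call in 4 and the strong Met promoter peak in 1. The weak Calcr peak at 6.53 kb kept its call in all 6.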
